A study of Mus musculus with 24 samples.

Results

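The miR-466, miR-467, miR-669 and miR-297 families are the microRNAs of a large repetitive cluster in an intron of the mouse gene Sfmbt2, and 41 of the 696 mouse miRNAs on the array carry one of these family names. Members were taken by name alone, as every miRNA on the array whose name starts with 1 of those 4 family names. There were 14 miR-466, 10 miR-467, 14 miR-669 and 3 miR-297 miRNAs. By strand, 18 names end in 5p, 13 in 3p, and 10 give no strand. In the mm9 coordinates of the files, 36 members map inside chr2:10388586-10439867, and no other miRNA of the array maps there. The remaining 5 carry a family name but map elsewhere: miR-466i-3p on chromosome 13, miR-466j on chromosome 10, miR-466k on chromosome 3, miR-467f on chromosome 11 and miR-467g on chromosome 5. The files place miR-669n both on chromosome 2 and on chromosome 3. In the RefSeq gene table (GRCm38.p6), 71 microRNA genes lie inside Sfmbt2, all 71 of these families, out of 81 genes of the families in that table. By position the name of an Sfmbt2 cluster thus covers 36 of the 41, and by family name alone the other 5.

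A microRNA gene is transcribed as a hairpin, and each arm of the hairpin can give a mature strand, named 5p or 3p, which guides the Argonaute complex to messenger RNAs that pair with its seed (bases 2 to 8). The Sfmbt2 cluster is specific to rodents, is expressed from the paternal chromosome in the placenta, and is made of many near copies of a few hairpins. Its 5p strands are rich in alternating U and G and its 3p strands in alternating C and A, so the members resemble each other and also other miRNAs that hold such repeats.

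Total RNA was measured on 24 single-colour miRNA arrays. The RNA came from 15 C57BL/6J mice, all 34 days old at collection, which had worn a frosted diffuser over the right eye for 10 days from postnatal day 24. This treatment is form deprivation, which blurs the image and makes the eye grow long and myopic, and the untreated left eye was the control. There were 6 whole-eye arrays per arm (from 6 mice), 3 retina arrays per arm (9 mice) and 3 sclera arrays per arm (9 mice). No source used here says whether an array held 1 animal or a pool, so a p-value here speaks only of how these arrays vary, and that variation could be technical. The control eyes belong to the treated animals, and the tissues cannot all come from separate mice. Arms are named by sample title. For whole eye, the source name and phenotype give the same arm as the title and a sentence in the description contradicts them. In retina and sclera, all other labels contradict the title, so the direction of an arm difference there is unsettled and every signed value turns if those labels are right. Between 274 and 401 of the 696 miRNAs were detected per array by the scanner software. The retinal marker miR-124 had a median scaled level of 6.40 on the log2 scale in retina and 2.26 in sclera, and the fibrous-coat marker miR-199a-3p of −4.58 in retina and 3.70 in sclera. All 5 retinal markers checked (miR-124, miR-9, miR-183, miR-96 and miR-182) were detected on all 6 sclera arrays, and the muscle markers miR-1, miR-133a and miR-206 on all 24 arrays.

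What an array measures is set by its probe, a designed DNA strand that pairs with the miRNA, so a CA repeat in a probe reads a UG repeat in the miRNA. The probes below are those that the results turn on, 5′ to 3′, with runs of at least 6 alternating bases (CACACA or ACACAC, and GTGTGT or TGTGTG) in capitals. The first set reads strands that were higher in whole eyes titled myopia.
miR-466h-5p: tACACACAagcacatgcac
miR-466c-5p: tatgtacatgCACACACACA
miR-669a: acatgaacatgCACACACAa
miR-669e-5p: atgaacatgCACACACA
miR-669b-5p: acatgcacatgCACACA
miR-669n: ACACACAtcCACACACAa
The next set holds no such run, and only the last of the 3 was higher there.
miR-467b-5p: catatacatgcaggcact
miR-467e-5p: acatatacatgctcacact
miR-467c-5p: cacatatacatgcacgcac
The last set reads 3p strands, or strands of the 3p kind. The first 4 of its 5 were detected on all 6 sclera arrays and the last on none.
miR-466f-3p: GTGTGTaTGTGTGTGTG
miR-466i-3p: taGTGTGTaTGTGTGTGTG
miR-467f: tgtagGTGTGTGTGTGT
miR-669f-3p: atacGTGTGTGTGTatgta
miR-467b-3p: gtgttgGTGTGTGTat

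A CA run was present in the longest probe of 14 of the 41 members (34.1%) and of 25 of all 696 miRNAs (3.59%). A GT run was present in 16 members (39.0%) and in 22 of all miRNAs (3.16%). No probe held both runs, and 11 members held neither. Strand and run went together by sequence: 11 of the 18 members named 5p had a CA run and none a GT run, whereas 12 of the 13 named 3p had a GT run. Several probes are nearly the same oligonucleotide. Of 820 pairs of members, 14 pairs, covering 23 members, shared a stretch of at least 14 bases. The probe of miR-669e-5p lies whole, with its 17 bases, inside that of miR-669a, and the 17 bases of miR-466f-3p lie inside the probe of miR-466i-3p. A member's signal may therefore include its near copies, so members are not independent measurements.

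Mature sequences from RefSeq (GRCm38.p6) matched 6 of the 41 members by name, and the reverse complement of the probe lay inside the mature strand for all 6. The 4 that were detected on at least 5 of the 6 retina arrays are given with the seed, bases 2 to 8, in capitals.
miR-466i-3p: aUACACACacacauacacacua
miR-466j: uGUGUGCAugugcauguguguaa
miR-467f: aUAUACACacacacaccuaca
miR-669n: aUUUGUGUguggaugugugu
These 4 seeds all differ. The strands of miR-466i-3p and miR-467f, of the 3p kind, carry the CA repeat, and those of miR-466j and miR-669n the UG repeat.

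Detected members were most numerous in retina and fewest in sclera, and in whole eye their number differed between the arms. The scanner software called 17 to 33 of the 41 members detected on each of the 6 retina arrays. In sclera it called 5 to 8. On the whole-eye arrays titled control it called 6 to 10 members (median 8.5), and on those titled myopia 16 to 24 (median 19.5), with no overlap between the arms. The retina arrays titled control had 25, 21 and 17 members detected and those titled myopia 29, 33 and 25. The arms touched there at 25 members.

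With detection on at least 2 arrays of every 3 in a group as the criterion, 20 members were present in retina titled control, 29 in retina titled myopia, 8 in whole eye titled control, 18 in whole eye titled myopia, 8 in sclera titled control and 5 in sclera titled myopia. Among all 696 miRNAs, the same counts were 362 and 394 in retina and 322 and 334 in whole eye, and in sclera 44.0% and 42.7% of the 696 met the criterion. The count in whole eye titled myopia was above that in titled control for members and for all miRNAs. Only 3 members were detected on all 24 arrays, miR-467f, miR-669f-3p and miR-669n, against 237 of all miRNAs. No array detected miR-466a-5p, miR-466d-5p, miR-466k, miR-466l-3p, miR-467d-5p, miR-669g, miR-669j or miR-669k-3p, which makes 8 members, against 241 of all miRNAs. A further 7 members were detected in retina alone, miR-297c-5p on 6 arrays, miR-669h-5p on 3 and miR-669m-3p on 2. The others, miR-297b-5p, miR-466b-5p, miR-466d-3p and miR-669i, were detected on 1 array each. The same count was not made over all miRNAs, so the 7 cannot be read as a trait of the cluster.

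**Figure D1:**
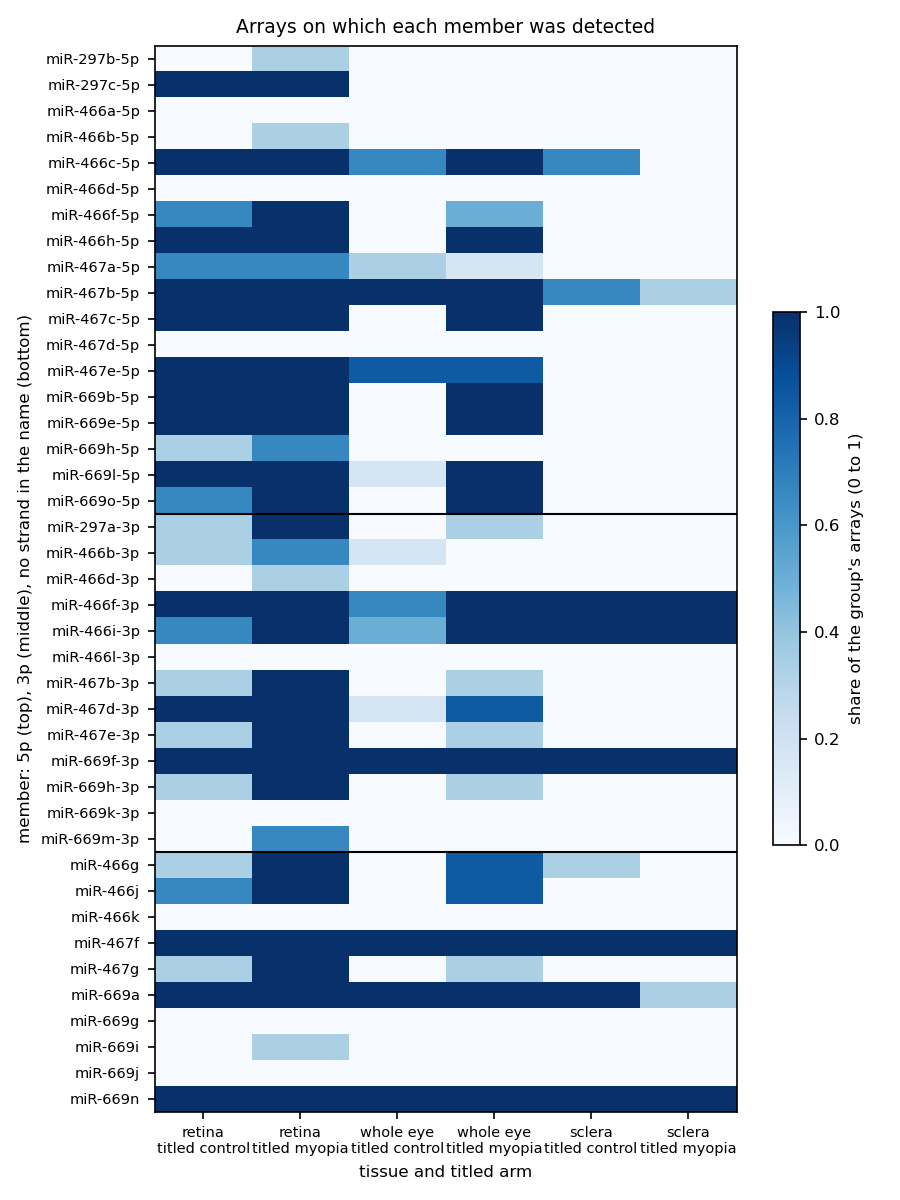
Share of each group's arrays (3 in retina and sclera, 6 in whole eye) on which each of the 41 members was called detected. Rows are members, split by strand, and columns are tissue and titled arm. The retina columns are the fullest, and the sclera columns are nearly empty apart from miR-466f-3p, miR-466i-3p, miR-669f-3p, miR-467f and miR-669n and, on some arrays, miR-669a, miR-466c-5p, miR-467b-5p and miR-466g.

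By strand, retina detected a median of 11 of the 18 members named 5p in titled control and 13 in titled myopia, and 4 and 10 of the 13 named 3p. In sclera the 3p strands led, with a median of 3 of 13 members named 3p in both arms, and of 1 and 0 of 18 named 5p. Whole eye lay between them for the 5p members, with a median of 3 in titled control and 9.5 in titled myopia, against 3 and 4 for the 3p members. By family, no miR-297 member was detected on any sclera array or whole-eye array titled control, and at most 1 per array in whole eye titled myopia.

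The first comparison asked which members differed between whole eyes titled myopia and those titled control. Levels are given in percent of the array's 75th percentile of signal, the value used to scale each array, and signals under 1.04% were set to that floor. Of 18 members tested, 13 were higher in titled myopia and none lower (limma, Benjamini-Hochberg adjusted p under 0.05 over all 341 miRNAs tested). Over all miRNAs tested in this tissue, 10.3% were called higher and 0% lower. The median log2 difference of the 18 was 1.73, against 0.08 over all tested. Of the 18, 10 reached the detection filter through titled myopia alone, where they are high, and 9 of these 10 passed, so the median describes the members that were tested only. Without the filter the median over all 41 members was 0.54, against 0 over all 696 miRNAs, with 12 members called, and under normexp background correction the median of the 18 was 0.38 with 8 called. All 13 did not overlap between the arms, which held for 9.68% of all tested. They were 6 of the 6 miR-466 members tested, 6 of 7 miR-669 and 1 of 5 miR-467, and no miR-297 member was tested.

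Among the 5p strands, miR-466h-5p was at 8.12% to 19.3% (median 12.2%) on the 6 arrays titled myopia and at 1.04% to 2.15% (median 1.04%) on the 6 titled control. It was detected on all 6 of the first and on none of the second, so the difference is a bound, at least 9.59-fold (fitted log2 difference 3.27 ± 0.25, SE, adjusted p = 2.02e-06, limma). miR-669e-5p was at 3.38% to 7.61% in titled myopia and at the floor on every control array, at least 4.54-fold higher (log2 difference 2.30 ± 0.17, adjusted p = 2.02e-06, limma). These 2 members had the smallest p-values of the cluster.

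miR-669a, which was detected on all 12 whole-eye arrays and therefore needed no bound, was at 7.67% to 14.4% (median 11.6%) in titled myopia and 3.26% to 4.65% (median 3.59%) in titled control, a 2.92-fold difference (log2 1.55 ± 0.15, adjusted p = 1.08e-05, limma). miR-669n, also detected on all 12, was at 19.5% to 47.9% (median 30.7%) against 3.55% to 9.00% (median 5.45%), 5.59-fold (log2 2.48 ± 0.28, adjusted p = 4.10e-05, limma). Both lie in the set of probes with a CA run, and in both every array titled myopia was above every array titled control.

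Of 14 members with a CA run, 9 were tested in whole eye and all 9 passed, while the other 5 did not reach the detection filter. Only 3 of the 9 reached it in titled control. miR-466c-5p was at 5.93% to 12.6% against 1.04% to 5.38% (log2 difference 2.005 ± 0.37, adjusted p = 0.00262, limma). Its call was lost in 3 of 13 other settings, with an adjusted p of up to 0.406 by limma. miR-669b-5p was at least 3.37-fold higher, miR-466j, which maps to chromosome 10, at least 3.415-fold and miR-669o-5p at least 2.76-fold, each detected on no control array. miR-669l-5p, detected on 6 arrays titled myopia and 1 titled control, differed by 1.59 ± 0.16 on the log2 scale. Over 13 other settings its difference fell as low as 0.003, and its call was lost in 1 (adjusted p up to 0.998, limma). miR-467c-5p, whose probe has no run of 6, was at 2.09% to 4.05% against the floor on all 6 controls, at least 2.40-fold (adjusted p = 7.57e-06, limma).

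3 members with a GT run in the probe also passed, miR-466f-3p, miR-466g and miR-466i-3p, and they were more uneven. miR-466f-3p was at 7.91%, 61.3%, 4.29%, 6.74%, 31.4% and 4.43% on titled myopia replicates 1 to 6, and at 1.096% to 3.22% on the controls (log2 difference 2.81 ± 0.63, adjusted p = 0.00925, limma). The 2 arrays far above the other 4, replicates 2 and 5, were on the same slide. miR-466g was at 66.7% and 31.3% on those 2 arrays and at 2.48% to 6.16% on the other 4, against 1.04% to 1.23% in controls (at least 8.06-fold, adjusted p = 0.00955, limma). miR-466i-3p was at 28.1% and 14.5% on those 2 and at 2.46% to 4.57% on the other 4 (log2 difference 1.90 ± 0.56, adjusted p = 0.0486, limma). Its call was lost in 8 of the 12 fits that left out 1 array, with an adjusted p of up to 0.110.

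Not all members moved. miR-467b-5p was at 2.77% to 3.43% in titled myopia and 2.72% to 3.40% in titled control (log2 difference 0.07 ± 0.07, adjusted p = 0.588, limma), and it was detected on all 12 arrays. miR-467e-5p was at 1.74% to 2.63% against 1.97% to 2.29% (log2 difference 0.06 ± 0.10, adjusted p = 0.764, limma). With quantile normalisation both were lower in titled myopia and passed, which makes the split 12 higher and 2 lower. miR-467b-3p, the other strand of the miR-467b hairpin, was detected on the 2 arrays titled myopia of that same slide only. It was at up to 22.5% there and at the floor on all controls. miR-467f (log2 1.29 ± 0.49, adjusted p = 0.140), miR-467d-3p (1.58 ± 0.54, adjusted p = 0.0992) and miR-669f-3p (0.48 ± 0.24, adjusted p = 0.233, limma) did not pass. On each of these 3, the arrays of replicates 2 and 5 were again the highest.

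**Figure D2:**
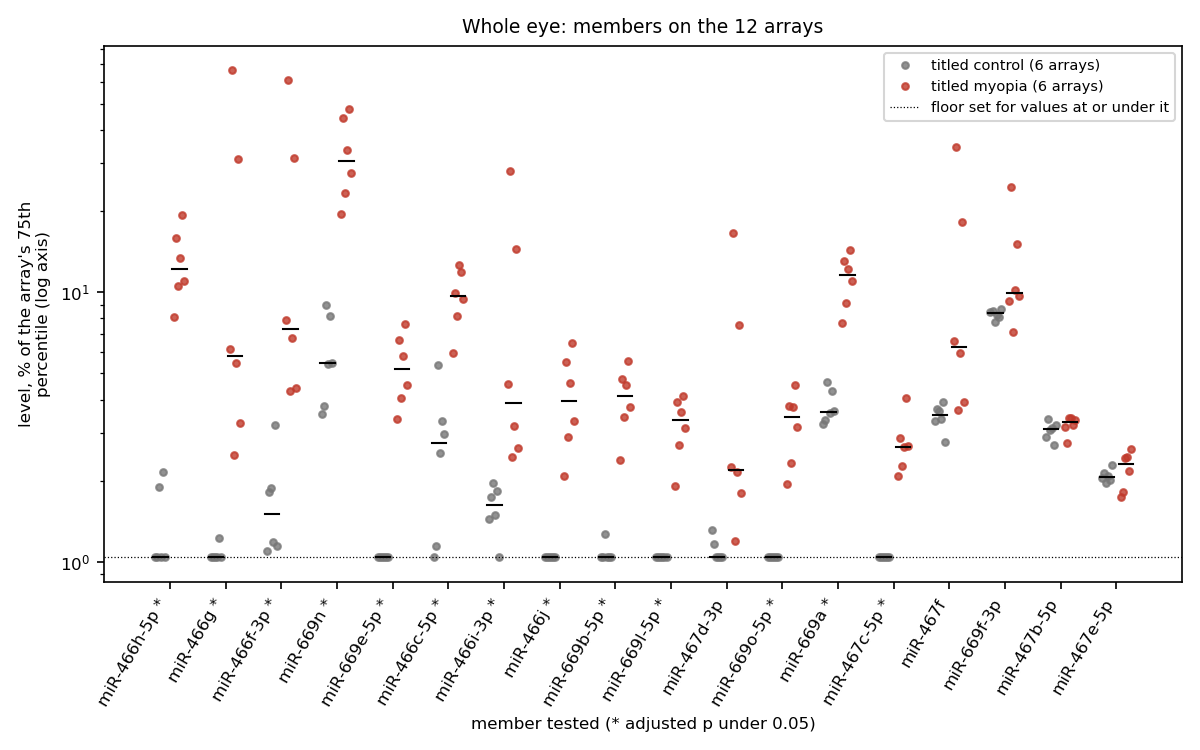
Levels of the 18 members tested in whole eye, in percent of each array's 75th percentile on a log axis, on 6 arrays titled control (grey) and 6 titled myopia (red), with medians as bars and the floor as a dotted line. The 13 members with an asterisk passed and show no overlap, and miR-467b-5p and miR-467e-5p, at the right, lie at the same level in both arms.

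By probe, all 9 members tested with a CA run were higher (median log2 difference 1.89), 3 of 6 with a GT run (1.74) and 1 of 3 with neither (0.07). Only 3 of those 9 met the detection filter in titled control, against 3 of the 6 and 2 of the 3. The others entered through titled myopia, where they are high, so these counts do not show that the run marks the rise. The same run was present in non-members. Of 7 non-members tested with a CA run, 5 were higher in titled myopia (median 1.63), and of 6 whose RefSeq mature strand holds UGUGUG, 4 were (median 1.43). They were miR-468-3p on chromosome 6 (log2 3.74 ± 0.44), miR-672-5p on the X chromosome (2.71 ± 0.23), miR-294-3p on chromosome 7 (2.29 ± 0.19), miR-1187 (1.63 ± 0.37) and miR-574-5p (1.23 ± 0.31), the last 2 on chromosome 5. let-7b-5p (0.19 ± 0.08, adjusted p = 0.168, limma) and miR-206-3p (0.08 ± 0.15, adjusted p = 0.789, limma) carry a CA run and did not pass. miR-294-3p, miR-468-3p and miR-672-5p were detected on 0, 2 and 3 of the 6 control arrays, so they too entered through titled myopia alone. miR-468-3p has no mature sequence in the table used and was named after its values were seen. Within the cluster's families the 3 members tested that map outside Sfmbt2 gave 2 calls, and the 15 inside gave 11.

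Most members that passed were near the detection limit in whole eyes titled control. Of the 53 miRNAs tested that were not detected on all 12 arrays, 20 passed, and 11 of these were members out of 13 tested. Of the 288 detected on every array, 15 passed, including 2 of 5 members.

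Control spots moved with these results, and their part in them was not tested. Each of 3 slides held 2 arrays per arm of whole eye. Fitted within a slide, 11 of 17 members passed on slide 1, 19 of 23 on slide 2 and 6 of 16 on slide 3, all higher in titled myopia. Over all miRNAs, 24 of 337 were higher and 4 lower on slide 1, 41 of 336 higher on slide 2, and 9 of 352 higher and 2 lower on slide 3. The 13 members called over all slides had a median log2 difference of 1.66, 2.52 and 1.49 there, where the sign follows from the arms not overlapping. The bright corner spots, a control feature that carries no miRNA probe, read 226 to 487 scanner units on the arrays titled myopia and 137 to 230 on those titled control, and the 2 highest, 487 and 415, were replicates 2 and 5 titled myopia. The negative control spots read 0.726 to 2.09 and 2.22 to 3.77. Position on the slide and arm cannot be told apart, because every array titled myopia occupied the same 2 positions and every control the other 2.

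**Figure D3:**
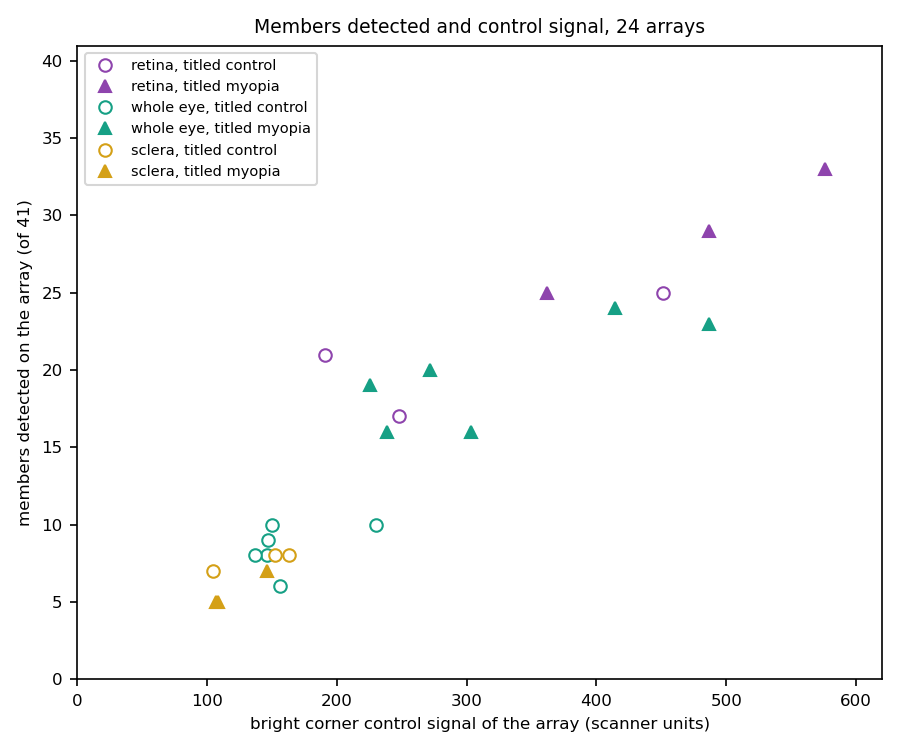
Number of the 41 members detected on each of the 24 arrays against the signal of the array's bright corner control spots, by tissue (colour) and titled arm (open circles control, triangles myopia). The sclera arrays lie at the lower left, with 5 to 8 members and a corner signal of 104 to 163, and the retina array titled myopia replicate 2 at the upper right, with 33 members and 576.

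In retina, no member passed between the arms, out of 29 tested (limma, smallest adjusted p = 0.537). Over all 396 miRNAs tested 0% passed, and at an unadjusted p under 0.05 there were 2 members and 20 miRNAs in all. The members' values were nonetheless spread widely. Their median log2 difference was 2.16 towards titled myopia, against −0.07 over all tested, and 26 of 29 were above 0. All 29 met the detection filter in titled myopia and 20 of them in titled control. The others entered through the arm where they are high, so median and count describe the members tested only. Without the filter the median over all 41 members was 1.72, against 0 over all 696 miRNAs. Non-members with a CA run in the probe moved alike, with 8 of 9 tested above 0 and a median of 1.90. The 11 members tested with that run had a median of 2.27. The median of the 29 was 0.06 under normexp (−0.24 over all tested), 1.22 without titled control replicate 3 and 3.04 without replicate 1. With the arms turned as the other labels have them, the same values point towards control.

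A control array lay with the other arm. miR-466h-5p was at 86.6%, 99.6% and 71.7% on the arrays titled myopia and at 69.3%, 16.95% and 4.51% on those titled control, replicates 1 to 3 (log2 difference 2.29 ± 0.99, adjusted p = 0.537, limma). miR-466g was at 53.6%, 66.5% and 26.1% against 58.6%, 2.05% and 0.961%, and miR-467b-3p at 16.8%, 20.3% and 7.54% against 17.6%, 0.156% and 0.206%. The titled control replicate 1 lay within the range of the myopia arrays for miR-466g and miR-467b-3p, and just under it for miR-466h-5p. In each the other 2 controls lay far below. Only 4 of 29 members did not overlap between the arms with titled myopia higher (miR-466f-5p, miR-466h-5p, miR-467c-5p and miR-669b-5p), against 8.33% of all miRNAs tested. The smallest p-values of the cluster, all with an adjusted p of 0.537 by limma, were those of miR-467c-5p (log2 difference 2.44 ± 0.93), miR-669b-5p (2.27 ± 0.90) and miR-297c-5p (0.82 ± 0.34).

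Without titled control replicate 1, 19 of 29 members passed, all higher in titled myopia, and over all 396 miRNAs tested 52 were higher and 3 lower. The values then were 6.26 ± 0.51 on the log2 scale for miR-467b-3p, 6.01 ± 0.49 for miR-467g and 4.96 ± 0.54 for miR-466g (adjusted p = 0.0243 each, limma), with 2 control arrays left. In titled control each was detected on 1 array only. The 2 arrays left read 0.156% and 0.206% for miR-467b-3p, against a floor of 0.156%. These sizes thus rest on control signals under detection and are not measured folds. Leaving out any other retina array gave 0 members. The bright corner signal of titled control replicate 1 was 451, against 191 and 248 on the other 2 controls and 362 to 576 on the arrays titled myopia, and its part in the result was not tested. Each slide held 1 retina array per arm. With the slide as a block, which here equals the replicate block, no member passed (smallest adjusted p = 0.361, limma), and 11 had an unadjusted p under 0.05 in place of 2.

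miR-467b-5p and miR-467e-5p, 5p strands with no run in the probe, spread little over the retina arrays, whereas miR-467c-5p, which has no run either, spread from 1.45% to 33.3%. miR-467b-5p was at 4.24%, 5.10% and 4.404% in titled myopia and at 3.98%, 5.96% and 5.60% in titled control (log2 difference −0.16 ± 0.19). miR-467e-5p was at 3.95%, 5.27% and 4.14% against 3.79%, 4.601% and 4.21%. The other strand of the latter hairpin, miR-467e-3p, was at 10.99%, 14.3% and 5.65% against 12.9%, 0.980% and 0.545%. In both of these hairpins, miR-467b and miR-467e, the 3p strand thus spread over the arrays far more than its 5p partner. The miR-466f hairpin did not show this. There miR-466f-5p spread from 0.226% to 25.6% and miR-466f-3p from 2.1% to 63.2%. The difference between strands was not tested.

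In sclera no member passed either, out of 8 tested (limma, smallest adjusted p = 0.887), as for 0% of all 311 miRNAs tested. No member and 7 miRNAs had an unadjusted p under 0.05. The members' median log2 difference was −0.01, against 0.08 over all tested. miR-467f was at 14.03%, 14.8% and 9.31% in titled myopia and 8.88%, 13.6% and 15.6% in titled control (log2 difference 0.01 ± 0.28). miR-669f-3p was at 6.86%, 8.50% and 6.07% against 6.83%, 7.98% and 6.18%. These 3p-type strands overlapped fully between the arms. The members with the smallest p were miR-669a (log2 difference −0.52 ± 0.23), miR-466c-5p (−1.06 ± 0.53) and miR-669n (−0.50 ± 0.29), with an adjusted p of 0.887 each by limma.

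**Figure D4:**
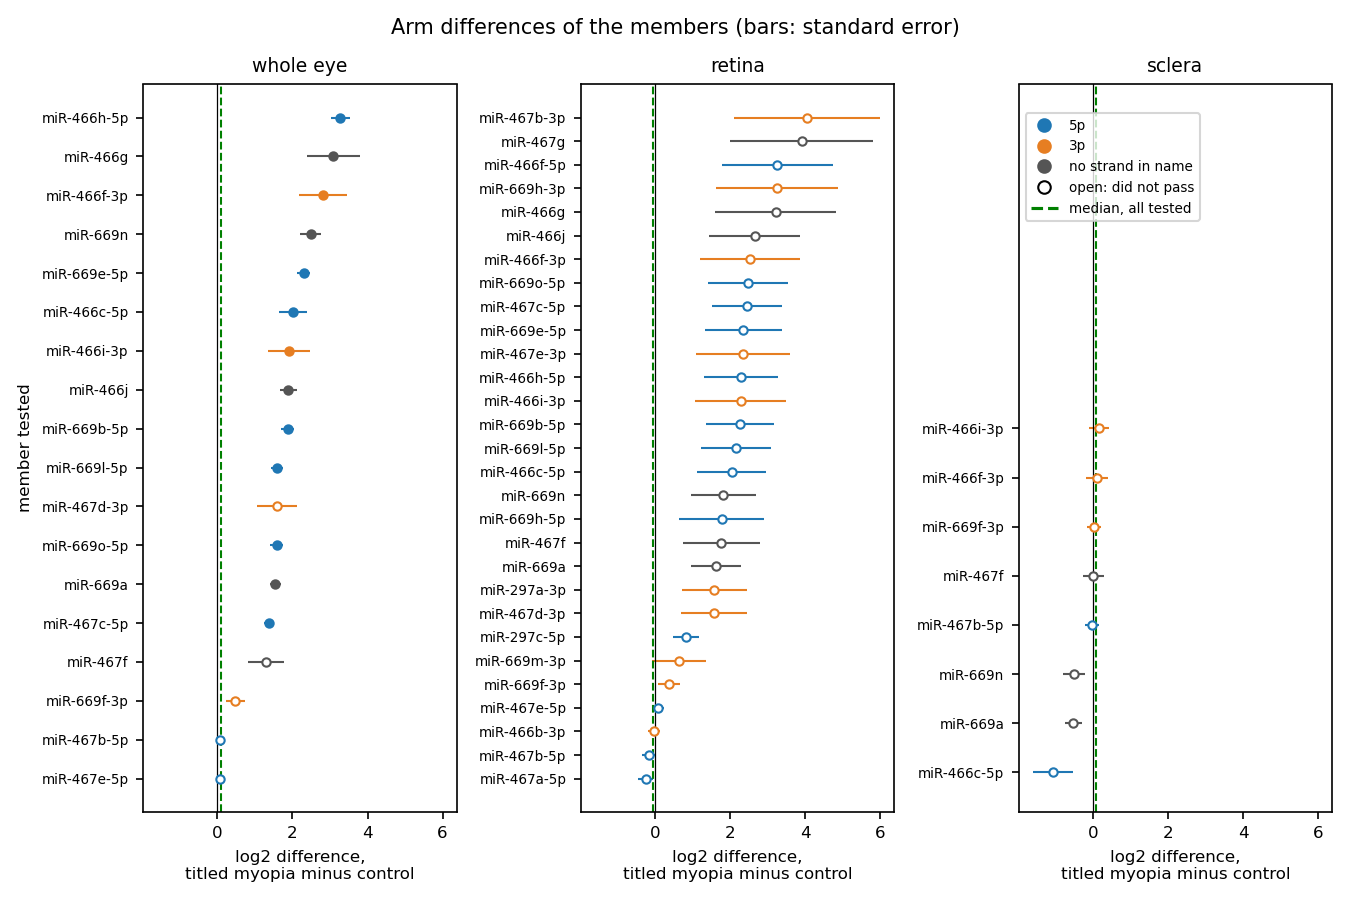
Log2 difference of each member tested, titled myopia minus titled control, with its standard error, in whole eye, retina and sclera. Colour gives the strand, filled points passed, and the dashed line is the median over all miRNAs tested in the tissue. In whole eye 13 of 18 points are filled, in retina the points reach 4.05 with wide bars and none is filled, and in sclera they lie between −1.06 and 0.16.

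The arm differences of the tissues were then set against each other. Between retina and whole eye, no member differed out of 29 tested, and 1.17% of all 426 miRNAs did, with 3 members and 29 miRNAs at an unadjusted p under 0.05. The smallest p-values were those of miR-669h-5p (1.09 ± 0.44, adjusted p = 0.467), miR-466f-5p (1.86 ± 0.77, adjusted p = 0.479) and miR-297c-5p (0.64 ± 0.27, adjusted p = 0.479, limma). With the arms of retina and sclera taken from the phenotype label, 20 members differed, all with the retina value lower, as did 81 of all 426 miRNAs, also all lower.

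Between sclera and whole eye, 4 members differed, against 2.11% of all miRNAs: miR-466h-5p by −4.20 ± 0.88, miR-669n by −3.06 ± 0.74, miR-669e-5p by −2.75 ± 0.71 and miR-669a by −2.14 ± 0.53 on the log2 scale (adjusted p = 0.0474 each, limma). No sclera array detected miR-466h-5p or miR-669e-5p. Their sclera arm difference was thus not measured, and their values mostly carry the whole-eye difference. These 4 calls were at the threshold. They were lost with the slide as a block (smallest adjusted p = 0.0579) and with the arms from the phenotype label (0.0741), and when 1 of the 24 arrays was left out the count was 0 in 14 cases, 1 in 2, 3 to 4 in 6, and 10 without retina titled control replicate 1 or replicate 3. Leaving out whole eye titled myopia replicate 2, 4, 5 or 6 gave 0 each. In the main fit 9 miRNAs were called in all. They were 4 members with a CA run, 3 non-members with that run, and others without it.

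The tissue comparisons do not depend on which arm is which. Tissue and position on the slide cannot be told apart, because each tissue had its own positions on every slide. The bright corner spots read 191 to 576 scanner units on the retina arrays and 104 to 163 on the sclera arrays, and their part in these comparisons was not tested. Retina had higher levels than sclera of the members tested, with 25 of 29 called higher and none lower. The median log2 difference was 2.78, against 0.81 over all 426 miRNAs tested, of which 58.7% were called higher and 30.5% lower. All 29 met the detection filter in retina titled myopia, against at most 18 members in a whole-eye group and 8 in a sclera group. Members under the filter elsewhere thus entered through retina, where they are high, also in the counts by strand and against whole eye below. Without the filter the median over all 41 members was 1.29, against 0 over all 696 miRNAs, with 25 members called higher. Of 9 non-members tested with a CA run, 6 were higher and 2 lower (median 2.62). All 11 members tested with that run were higher (median 3.39). With all miRNAs as the scaling set, 181 miRNAs were higher and 173 lower (median 0.08), and members split into 23 higher and 1 lower (median 2.03). Normexp background correction moved the median of all miRNAs to −0.85, with 68 higher and 245 lower, and members to a median of −0.67 with 1 higher and 12 lower. In these bulk samples, fewer cells of a type and less RNA per cell cannot be told apart.

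miR-466h-5p was at 2.81% to 63.6% (median 44.4%) on the 6 retina arrays in the scaling over all 24 arrays, and was detected on no sclera array, so that retina was at least 35.5-fold higher (log2 difference 5.30 ± 0.51). Under the normexp correction the log2 difference was 0.16. The next members were miR-669b-5p (at least 14.4-fold), miR-669e-5p (at least 13.5-fold), miR-467c-5p (at least 11.3-fold) and miR-466j (at least 10.7-fold), none detected in sclera. Under normexp their values were −0.09, −0.09, −0.24 and −0.19, each above the median of all miRNAs, −0.85, under that correction.

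By strand, all 13 members tested that are named 5p were higher in retina (median log2 difference 3.19), and 7 of 10 named 3p were (median 1.56). miR-466f-3p was at 1.31% to 40.3% (median 23.9%) in retina and 3.21% to 6.45% (median 4.76%) in sclera, with 2 retina arrays below all sclera arrays, and did not pass. miR-466i-3p (log2 difference 0.29 ± 0.67) and miR-467f (−0.30 ± 0.58) did not pass either, and their sclera levels, 2.95% to 5.86% and 7.02% to 14.3%, lay within the retina range. No test of 5p against 3p was made.

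Against whole eye, 27 of 29 members were higher in retina and none lower, with a median log2 difference of 1.86 against 0.70 over all miRNAs, of which 65% were called higher and 23% lower. Without the detection filter 26 of the 41 members were called higher, with a median log2 difference of 1.34. Among 9 non-members tested with a CA run, 7 were higher (median 2.30). The 11 members tested with that run had a median of 2.45. Normexp correction left 8 members higher and none lower, with 112 of all miRNAs higher and 51 lower. The largest log2 differences were those of miR-466h-5p (3.35 ± 0.44), miR-467c-5p (2.95 ± 0.32), miR-669b-5p (2.93 ± 0.33), miR-466f-5p (2.89 ± 0.39) and miR-669e-5p (2.75 ± 0.36). miR-467a-5p and miR-669m-3p were the 2 that did not pass. miR-467b-5p, level between the arms, was at 2.61% to 3.49% in retina, 1.93% to 2.31% in whole eye and 1.17% to 1.59% in sclera. Those 3 ranges did not overlap.

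Whole eye against sclera gave 14 members higher and 1 lower, with 40.1% of all miRNAs called higher and 30.8% lower. Quantile normalisation gave 13 and 3, the deposited values 16 and 0, and normexp correction 0 and 28. The normexp split came with a shift of all miRNAs, from a median of 0.15 to −1.01 with 49 higher and 316 lower, and the members' median there was −1.11. The largest rises were those of miR-466h-5p (1.96 ± 0.44), miR-669n (1.52 ± 0.37), miR-466c-5p (1.41 ± 0.44), miR-669e-5p (1.39 ± 0.36) and miR-669b-5p (1.24 ± 0.33), all of which were below 0 under normexp. The 1 member that was lower in whole eye was miR-467f (−1.44 ± 0.50), at 1.99% to 24.7% (median 2.52%) in whole eye. By strand, 10 of 13 members tested that are named 5p were higher in whole eye and 1 of 10 named 3p was. With a CA run, 9 of 11 members tested were higher (median 1.23). The 9 non-members tested with that run gave 3 higher and 2 lower (median 0.29).

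**Figure D5:**
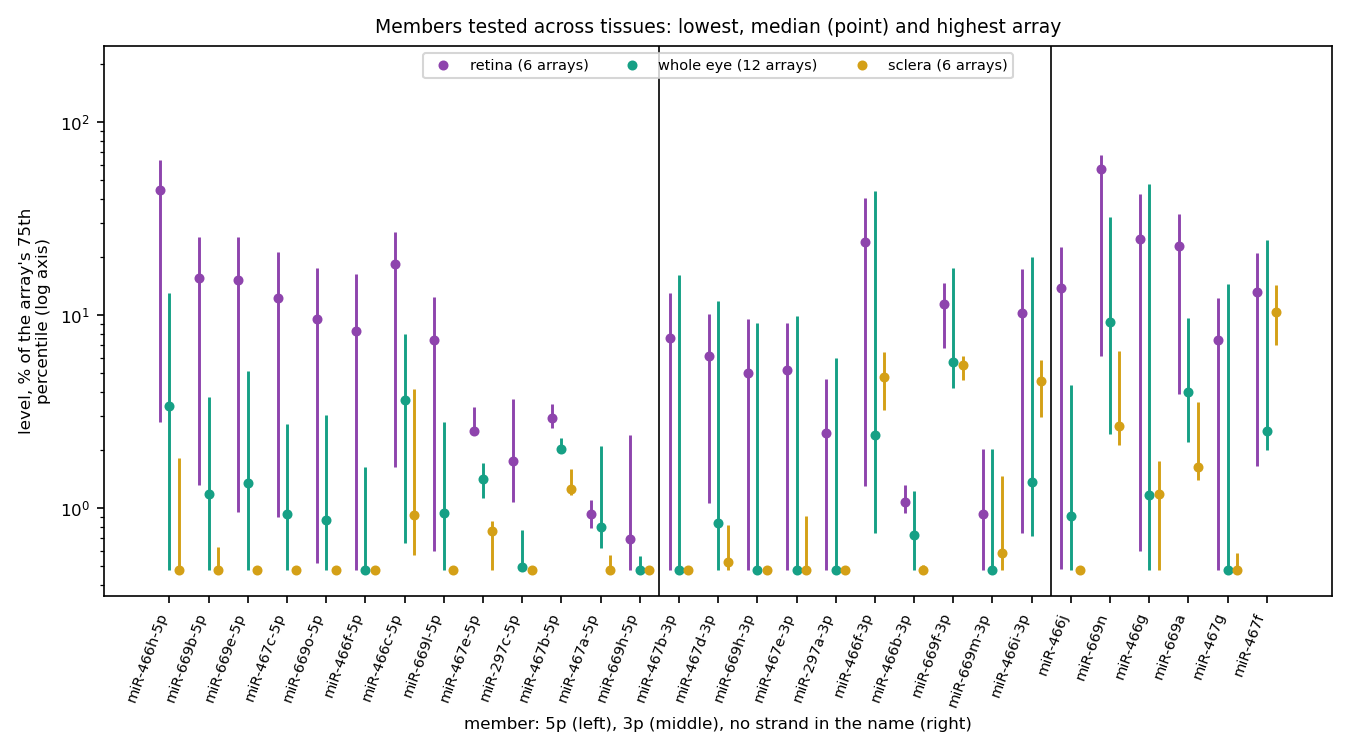
Level of the 29 members tested across tissues, in percent of the array's 75th percentile on a log axis, as lowest array, median (point) and highest array in retina (6 arrays), whole eye (12) and sclera (6), in the scaling over all 24 arrays with its floor of 0.479%. Most 5p members step down from retina to sclera. For miR-466f-3p, miR-466i-3p and miR-467f the median is lowest in whole eye, and the sclera range lies within that of retina. Under normexp background correction the medians of all miRNAs and of the members against sclera both fell below 0.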

How the data were processed

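The authors deposited 1 scanner file per array, with spot intensity values from Agilent Feature Extraction (version 11, per the submitters' processing notes), background-subtracted and spatially detrended per the file headers, and a table of processed log2 values (column medians 3.18 to 4.07). Set against the scanner values its scale was log2, and its centring and its treatment of dim probes stay unknown. Spots flagged as outliers (2.15% to 4.39% per array) were left out and no spot was saturated. Spots were averaged per probe and probes summed per miRNA. Each array was divided by the 75th percentile of those miRNAs that every array in a fit detected (288 in whole eye, 329 in retina, 266 in sclera, 237 over all 24). A floor was taken as the lowest signal of any detected miRNA on each array, median of arrays, and signals under it were set to it before taking log2. Tests were limma 3.58.1 (R 4.3.3) on miRNAs detected on 2 of every 3 arrays of a group, 2-sided, unpaired, and the scripts were tested on simulated data. An at-least fold divides the mean of the detected group by that of the other, where each array counts with its own signal or, if larger, its lowest detected one. Named members are all that passed between arms (or the 3 smallest p), and the 5 largest differences each way between tissues. Members and lists were chosen with earlier results of these data known. All table columns were mapped, with 0 left over. Same-numbered arrays of the arms did not deviate together in every pair (r −0.37 to 0.64), so numbers were not taken as pairs. The depth of an array is not a count, and its precision is limited by the number of arrays.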

Additional observations from a re-analysis of the deposited data

Results flagged for a closer look

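In whole eye titled control, 3 values were flagged as far from the other 5 of their group: replicate 5 for miR-466f-3p (3.22%, next 1.88%) and for miR-466g (1.23%, the others at the floor of 1.04%), and replicate 3 for miR-669b-5p (1.27%, the others at the floor). Where the other 5 are all at the floor, any value above it is flagged, so the flags of miR-466g and miR-669b-5p carry no weight. Chance marks about 1 group in 20 where values are not held at a floor, and 28 sets of 6 arrays were examined.

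The arm difference in sclera was below that in whole eye for miR-466h-5p (−4.20 on the log2 scale), miR-669n (−3.06), miR-669e-5p (−2.75) and miR-669a (−2.14), each with an adjusted p of 0.0474 by the interaction term of limma. miR-466h-5p and miR-669e-5p were detected on no sclera array, so for them the value is no measured difference in sclera. In sclera the direction is that of the sample titles, which the other labels contradict.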

How the results depend on the processing

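In whole eye 8 members passed with normexp correction and 6 within slide 3, against 13, and 12 to 14 with single arrays left out. Scaling on all miRNAs moved the median of all tested from 0.08 to −0.13 in whole eye and from −0.07 to −0.46 in retina. Retina gave 0 to 19 members with single arrays left out and 0 in every other setting. Sclera gave 0 throughout. With normexp, 13 members passed between retina and sclera (1 higher, 12 lower), 8 between retina and whole eye, and 28 between whole eye and sclera (all lower, median of all miRNAs −1.01). Reversed under normexp were, against sclera in retina, miR-669b-5p (−0.09371), miR-669e-5p (−0.09316), miR-467c-5p (−0.24) and miR-466j (−0.19), and in whole eye miR-466h-5p (−0.98), miR-669n (−0.39), miR-466c-5p (−0.88), miR-669e-5p (−1.01) and miR-669b-5p (−1.05). The median of all miRNAs fell there too, and the cause was not tested. The retina against whole eye arm difference gave 20 members with arms from the phenotype label, and 0 to 3 with single arrays left out. The sclera against whole eye arm difference gave 0 with normexp, the deposited value table, no filter, the slide as a block, flagged spots kept and phenotype arms, 10 with the floor at 0.5 of its value, and 0 to 10 with single arrays left out. Keeping flagged spots and halving the floor were chosen after seeing the data. With the spot flag for signal well above background as the detection rule, 4, 3 and 2 members were detected in sclera titled control, sclera titled myopia and whole eye titled control, against 8, 5 and 8. The replicate block gave 13, 0, 0, 25, 25, 11, 0 and 4 members in the 8 comparisons and moved no count by over 1.5 times. Of the named members' values in all settings, 875 kept direction and call, 121 lost the call and 9 turned. Members near the floor have only bounds, which limits every fold against controls or sclera.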
